A study of Mus musculus with 6 samples.

Results

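The genes examined are 35 interferon-stimulated genes, a group that type I and type II interferons switch on in most cells and that includes nucleic acid sensors, antiviral effectors and negative regulators. They were followed in an ATAC-seq comparison of granulocyte-monocyte progenitors, the bone marrow cells that give rise to neutrophils and monocytes. A peak was counted as belonging to a gene when it overlapped the gene body, or when the gene was the nearest protein-coding gene within 50 kb, and gene-end peaks (within 1 kb of either end of the gene) were kept apart from the others. This gave 203 of the 182166 consensus peaks, 66 at gene ends and 137 elsewhere, spread over 33 of the 35 genes. Ifit3, which encodes an RNA-binding antiviral protein, and Oasl1, a relative of the oligoadenylate synthetases, had no peak. Of the 203 peaks, 126 overlapped a member gene and 77 lay outside, and 2 gene-end peaks were shared by Dtx3l and Parp9, whose ends overlap.

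The GFI1-KD group (KD/KD) comprised 3 libraries from mice that express human GFI1, at 10 to 20%, in place of mouse Gfi1. The GFI1-KI group (KI/KI) comprised 3 libraries from mice in which human GFI1 replaces the mouse gene, with no reduction given. Mice of both genotypes were C57BL/6 and untreated, and in both the human gene stands in for the mouse one. Libraries are called KD1 to KD3 and KI1 to KI3. The labels do not say whether each library came from a separate animal, so the p-values measure the spread between libraries, part of which may be technical.

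Interferons bind their receptors and activate Janus kinases, which switch on transcription factors in the cytoplasm. These enter the nucleus and bind the interferon-stimulated response element (ISRE) or the gamma-activated site (GAS) in promoters. GFI1 is a zinc-finger repressor that, with chromatin-modifying partners, supports neutrophil development from these progenitors. In ATAC-seq the Tn5 transposase cuts accessible DNA, so the reads in a peak measure how open that stretch is, and not how much RNA the gene makes.

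The libraries held between 16022763 and 19857646 reads in peaks in GFI1-KD and between 19408373 and 27741446 in GFI1-KI. The share of normalized reads that fell in gene-end peaks of any gene was 36.7% to 37.2% in GFI1-KD and 38.5% to 39.5% in GFI1-KI, without overlap. Chromosome Y held 0 reads in KD1 and 1 in KI2, while the other 4 libraries held 499 to 865. Each genotype thus mixed libraries with and without chromosome Y signal, so its libraries did not all share a single source. The reported fit did not model this difference, and its part in the spread between libraries was not tested. Gene-end signal of the granulocyte-monocyte progenitor markers, Mpo, Elane, Cebpa, Kit and Cd34 among them, summed to 10431 to 11094 normalized reads in GFI1-KD and 10638 to 11411 in GFI1-KI, and 13 of the 15 markers had a gene-end peak (Fcgr3 and Cd33 did not). Of these 13, limma called 1 higher in GFI1-KD, Csf2rb (log2 fold change 0.24, adjusted p = 0.029), and 1 lower, Kit (-0.35, 0.00075). Gene-end sums of monocyte markers were 3346 to 3499 in GFI1-KD and 2916 to 3311 in GFI1-KI, without overlap. For erythroid markers they were 1914 to 2057 in GFI1-KD and 2233 to 2393 in GFI1-KI, and for T and NK cell markers 1419.9 to 1607 in GFI1-KD and 1666 to 1738 in GFI1-KI, again without overlap. Of the 8 T and NK cell markers tested, Cd3d (means of 918 in GFI1-KD and 1018 in GFI1-KI) and Nkg7 (299 and 387) held the most reads. Only Nkg7 was called by limma, and Bcl11b and Gata3 went the other way. Gene by gene, 40.3% of all genes did not overlap on such sums, and 79.2% were lower in GFI1-KD. Sums for mature neutrophil markers (2363 to 2747 in GFI1-KD, 2054 to 2376 in GFI1-KI) and B cell markers (563 to 701 in GFI1-KD, 625 to 701 in GFI1-KI) overlapped. Of the 8 neutrophil markers tested, Mmp8 held the most reads. Limma called Camp (log2 fold change 0.51, adjusted p = 0.00479) and S100a9 (0.41, 0.0112) higher in GFI1-KD and none lower. Ltf and Cxcr2 had negative fold changes, and the median of the neutrophil markers was 0.19. Plasmacytoid dendritic cells, which make much type I interferon, had marker sums of 866 to 926 in GFI1-KD and 927 to 992 in GFI1-KI, without overlap. The sums came from 4 of their 8 markers, since Ccr9, Cox6a2, Ly6d and Spib had no gene-end peak. Of the 4, Tcf4 held the most reads (means of 617 in GFI1-KD and 680 in GFI1-KI). Klk1, with the fewest reads, was also lower in GFI1-KD. Siglech (154 and 146) and Runx2 (115 and 112) went the other way. None of the 4 was called by limma, and their median log2 fold change was -0.05, beside -0.12 for all genes. In such bulk libraries fewer cells of a type and less signal per cell cannot be told apart, and the part of these markers in the results below was not tested.

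Promoter sequences in RefSeq (GRCm38.p6, the assembly that mm10 stands for; 250 bases before to 50 after the start) were matched for 27 of the 35 genes. The ISRE core, written GAAANNGAAA and searched on both strands, stood in the promoters of 15 of these genes and in 16 of their 34 promoters (47.1%), against 3.44% of all 32851 promoters in the table. The GAS core, TTCNNNGAA, which reads the same on both strands, stood in 29.4% of the members' promoters and 8.3% of all. Both stood in 14.7% of the members' promoters and 0.454% of all, and in Bst2 a match of each overlapped. The following 4 promoters are shown because the first pair belongs to the genes whose sequence was matched and whose summed gene-end reads differed between genotypes, Ifih1 and Gbp7, and the other pair to classical targets, Isg15 and Ifit1, that did not pass that test. They are written 5′ to 3′ along the gene, with matches to the ISRE core in capitals. They lie at chr2:62646206-62646505 (minus strand), chr3:142530086-142530385 (plus strand), chr4:156200769-156201068 (minus strand) and chr19:34640639-34640938 (plus strand).
Ifih1: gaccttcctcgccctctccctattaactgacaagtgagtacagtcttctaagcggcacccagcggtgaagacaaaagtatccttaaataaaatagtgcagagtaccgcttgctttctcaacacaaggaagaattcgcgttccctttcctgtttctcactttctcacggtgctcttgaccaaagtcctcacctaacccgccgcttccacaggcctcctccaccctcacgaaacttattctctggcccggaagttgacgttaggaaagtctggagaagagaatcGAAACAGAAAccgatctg
Gbp7: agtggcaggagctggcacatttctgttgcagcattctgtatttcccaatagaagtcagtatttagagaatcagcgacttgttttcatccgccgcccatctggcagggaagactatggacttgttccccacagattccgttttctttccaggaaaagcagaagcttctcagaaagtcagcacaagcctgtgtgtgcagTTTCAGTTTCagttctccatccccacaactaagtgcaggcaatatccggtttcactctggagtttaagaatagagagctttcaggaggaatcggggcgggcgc
Isg15: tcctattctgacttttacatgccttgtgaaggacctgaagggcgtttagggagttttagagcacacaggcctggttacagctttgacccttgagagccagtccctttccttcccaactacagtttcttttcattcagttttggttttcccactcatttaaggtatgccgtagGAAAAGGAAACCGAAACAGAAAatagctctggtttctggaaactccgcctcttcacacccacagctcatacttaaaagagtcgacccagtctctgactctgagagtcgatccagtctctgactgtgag
Ifit1: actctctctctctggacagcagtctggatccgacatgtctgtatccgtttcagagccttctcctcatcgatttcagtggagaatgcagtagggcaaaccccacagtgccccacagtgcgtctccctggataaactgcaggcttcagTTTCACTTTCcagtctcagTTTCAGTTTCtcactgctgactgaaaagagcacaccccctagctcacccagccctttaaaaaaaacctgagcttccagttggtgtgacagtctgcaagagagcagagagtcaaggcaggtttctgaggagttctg
The match begins 32 bases past the start of Ifih1, 53 before that of Gbp7, 78 before that of Isg15, where 3 matches overlap, and 104 before that of Ifit1, where a further match follows. Each of these promoters was overlapped by a consensus peak.

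Few peaks of these genes differed between GFI1-KD and GFI1-KI, fewer in proportion than over all peaks. Peaks averaging 10 or more normalized reads were tested. Of the 189 such member peaks, 8 (4.23%) passed an adjusted p of 0.05 in limma's moderated test, 2 higher and 6 lower in GFI1-KD, while 10.5% of all 170733 tested peaks passed, 4.99% higher and 5.48% lower. The split of directions depended on the scaling, with 6 higher and 4 lower of 10 called peaks under median-of-ratios scaling (11.4% of all peaks called) and 6 higher and 5 lower of 11 with equal totals (11.8%). At an unadjusted p under 0.05 there were 35 member peaks (9 higher, 26 lower), against 25.5% of all peaks. The genotypes did not overlap in 28.0% of the tested member peaks, GFI1-KD being the higher in 13 and the lower in 40, beside 28.8% of all tested peaks (11.4% higher and 17.4% lower). The other 14 member peaks were below the minimum and are in no count.

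At gene ends 3 of 62 tested member peaks (4.84%) were called, none higher and 3 lower in GFI1-KD, beside 8.88% of all tested gene-end peaks (1.71% higher and 7.17% lower). At an unadjusted p under 0.05 in limma 1 gene-end peak was higher and 10 were lower (24.2% of all gene-end peaks), and edgeR and DESeq2 each called 1 higher, at Gbp7. Among the other peaks 5 of 127 were called (3.94%), 2 higher and 3 lower, beside 10.8% of all such peaks (5.6% higher and 5.16% lower). The median log2 fold change (GFI1-KD over GFI1-KI, on log2 of the value plus 1) was -0.10 for member gene-end peaks and -0.10 for all gene-end peaks. It was -0.06 for the members' other peaks and -0.04 for all other peaks. The cumulative curves of fold changes show members and background lying close together in both classes.

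**Figure D1:**
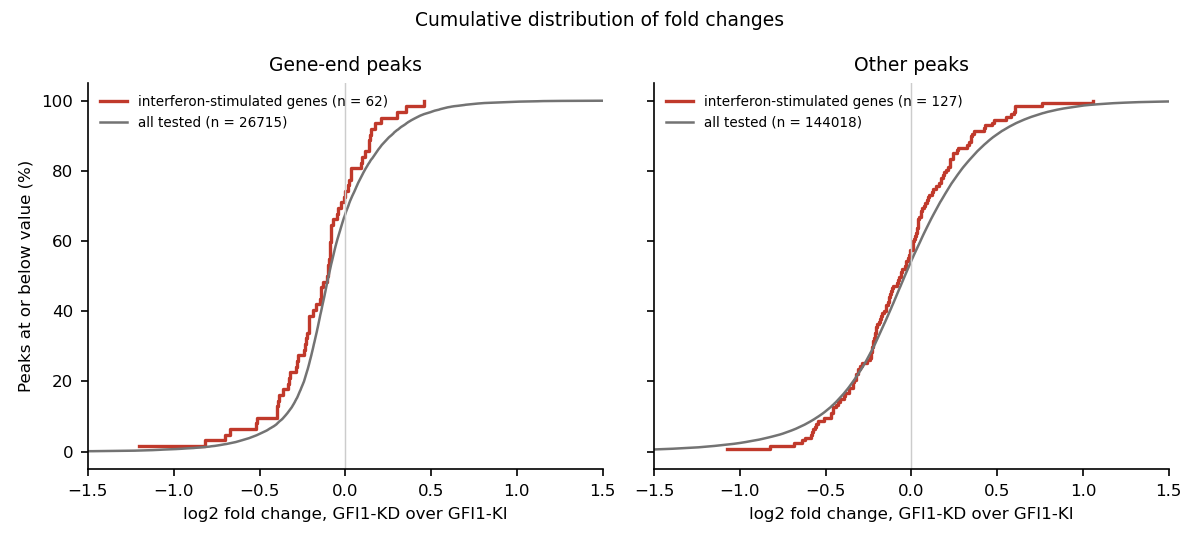
Cumulative share of tested peaks (vertical axis, %) at or below each log2 fold change of GFI1-KD over GFI1-KI (horizontal axis), for gene-end peaks and for other peaks. The red steps are the 62 and 127 member peaks and the grey curves all tested peaks of each class; the member medians are -0.10 and -0.06, beside -0.10 and -0.04 for all.

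The 33 genes with a peak all had at least 1 tested gene-end peak. The strongest gene-end peak of each gene had a median of 523 normalized reads per kb over the 33 genes, ranging from 77.2 at Ifi44, whose product is an interferon-induced cytoplasmic protein, to 881 at Gbp3, a guanylate-binding GTPase. Over all 62 tested member gene-end peaks, weaker ones included, the median was 234 per kb, and over all tested gene-end peaks of any gene it was 296 per kb, with quartiles of 140.1 and 667. Cmpk2, Gbp3 and Bst2 (tetherin, which holds budding virions at the cell surface) had the most reads in a single gene-end peak, and Oas1a and Ifi44 the fewest. Of these 33 peaks, 2 were called (Ifih1 and Usp18). For 32 of the 33 the 95% interval of the fold change lay inside a change of 2-fold either way, the exception being Ifi44.

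**Figure D2:**
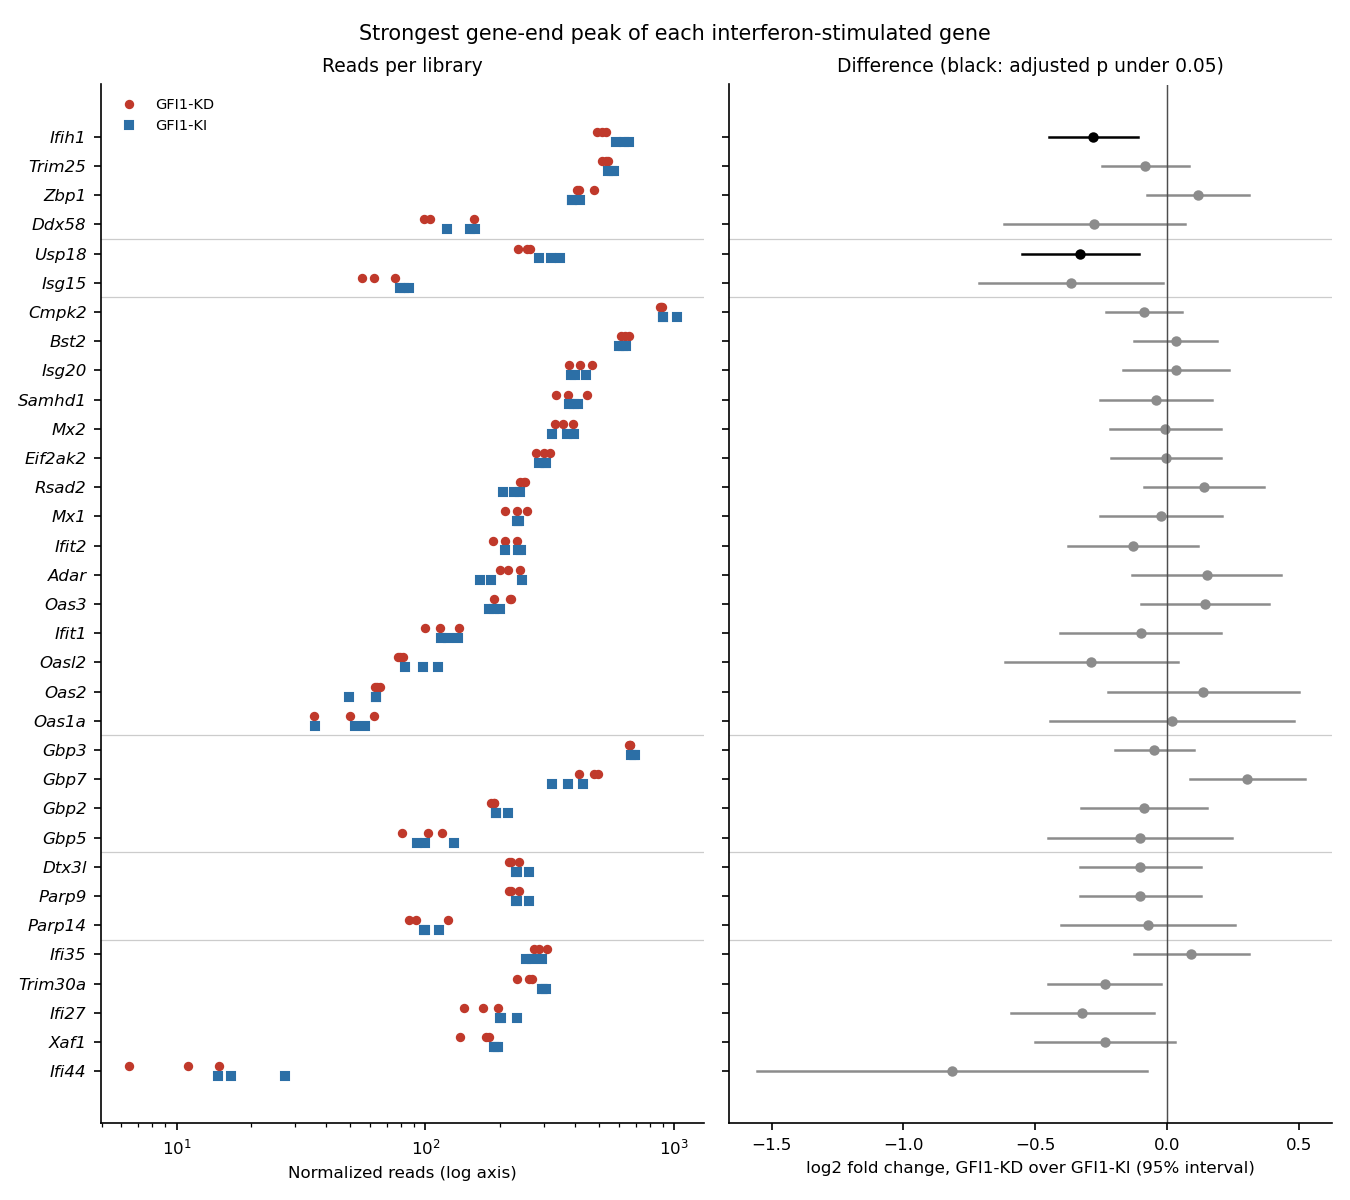
The strongest gene-end peak of each of 33 genes, grouped by role. Left, normalized reads (log axis), with red circles for the 3 GFI1-KD libraries and blue squares for the 3 GFI1-KI libraries; right, log2 fold change with its 95% interval, black where the adjusted p is under 0.05. Dtx3l and Parp9 share 1 peak, and the intervals of Ifih1 and Usp18 lie wholly below 0 with the test passed.

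Among the nucleic acid sensors and the ligase that serves them (Ifih1, Ddx58, Zbp1 and Trim25), 1 of 34 tested peaks was higher, 1 was lower and 32 were not called. Ifih1 encodes MDA5, the cytosolic sensor of long double-stranded RNA. The peak over its promoter (chr2:62645564-62646519) held 514, 487 and 530.0 normalized reads in KD1, KD2 and KD3, against 581, 627 and 655 in KI1, KI2 and KI3. Every GFI1-KD library lay below every GFI1-KI library, and the peak holds the promoter printed above. The means were 510.4 ± 21.4 in GFI1-KD and 621 ± 37.2 in GFI1-KI (SD, n = 3 each), and the peak fell by 0.28 (log2 scale, SE 0.08, adjusted p = 0.029 in limma). The call was lost without KD2 (adjusted p = 0.0675), KD3 (0.0578), KI2 (0.134) or KI3 (0.187), with DESeq2 (0.104) and under median-of-ratios scaling (0.056). Of the 12 tested Ifih1 peaks the other 11 were not called, 7 with a negative and 4 with a positive fold change.

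Trim25 encodes a ubiquitin ligase that acts on the RIG-I sensor. A peak inside it (chr11:89006313-89006910), 6910 bp from the nearer gene end, held 368, 280.2 and 295 normalized reads in KD1 to KD3, against 266, 197 and 213 in KI1 to KI3. The genotypes did not overlap, although KD2 and KI1 lay close together. It rose by 0.48 (log2 scale, SE 0.13, adjusted p = 0.0169 in limma) and was not called without KD1 (0.0771), KI2 (0.122) or KI3 (0.0821). The gene-end peak of Trim25, with 527 ± 15.1 in GFI1-KD and 559 ± 17.3 in GFI1-KI (SD, n = 3), was not called, nor was a strong peak 3.85 kb outside the gene (660.1 ± 47.0 in GFI1-KD and 619 ± 36.7 in GFI1-KI). Ddx58, which encodes the RNA sensor RIG-I, had 8 tested peaks and none called by limma in the reported fit. Its strongest gene-end peak held 120.1 ± 32.3 in GFI1-KD and 143 ± 19.2 in GFI1-KI, and was called, as lower, in 1 of 16 alternatives. In that peak KD1 (157) lay among the GFI1-KI libraries and KD2 and KD3 (98.7 and 104) below them. Zbp1, a sensor of Z-form nucleic acids that can trigger cell death, held 407, 413 and 478 in KD1 to KD3 and 389.6, 418 and 387 in KI1 to KI3 at its strongest gene-end peak, with no call among its 8 peaks.

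ISG15 is a ubiquitin-like protein joined to others after interferon, and USP18 removes it and also damps signalling from the type I interferon receptor. All 13 tested peaks of Isg15 and Usp18 had negative fold changes, 2 of them called, both at Usp18, while 56.5% of all tested peaks were negative. Peaks of 1 gene are neighbours and are not replicates of each other. The peak at the lower-numbered end of Usp18 (chr6:121245542-121246057) held 236, 257 and 264 normalized reads in KD1 to KD3, against 287, 319 and 348 in KI1 to KI3. The genotypes did not overlap, and the peak fell by 0.33 (SE 0.11), with an adjusted p of 0.0497 in limma that lies just inside the threshold. It was called in 6 of 16 alternatives, with adjusted p between 0.0183 and 0.268.

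Inside Usp18, a weaker peak 5298 bp from that end (chr6:121251204-121251610) held 31.0, 30.9 and 39.9 normalized reads in KD1 to KD3, against 56.3, 50.8 and 57.4 in KI1 to KI3. All GFI1-KD values were below all GFI1-KI values, and the peak fell by 0.68 on the log2 scale (SE 0.20, adjusted p = 0.0284 in limma). It was called in 9 of the 15 alternatives that tested it, and leaving out any library but KD3 ended the call (adjusted p of 0.0534 to 0.127). Isg15 had a single peak, over its promoter (chr4:156200778-156200960), with 62.1, 75.3 and 55.4 in KD1 to KD3, against 78.8, 82.4 and 86.1 in KI1 to KI3. The genotypes did not overlap there either, but the difference did not pass the test (-0.36 ± 0.17, limma adjusted p = 0.175).

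**Figure D3:**
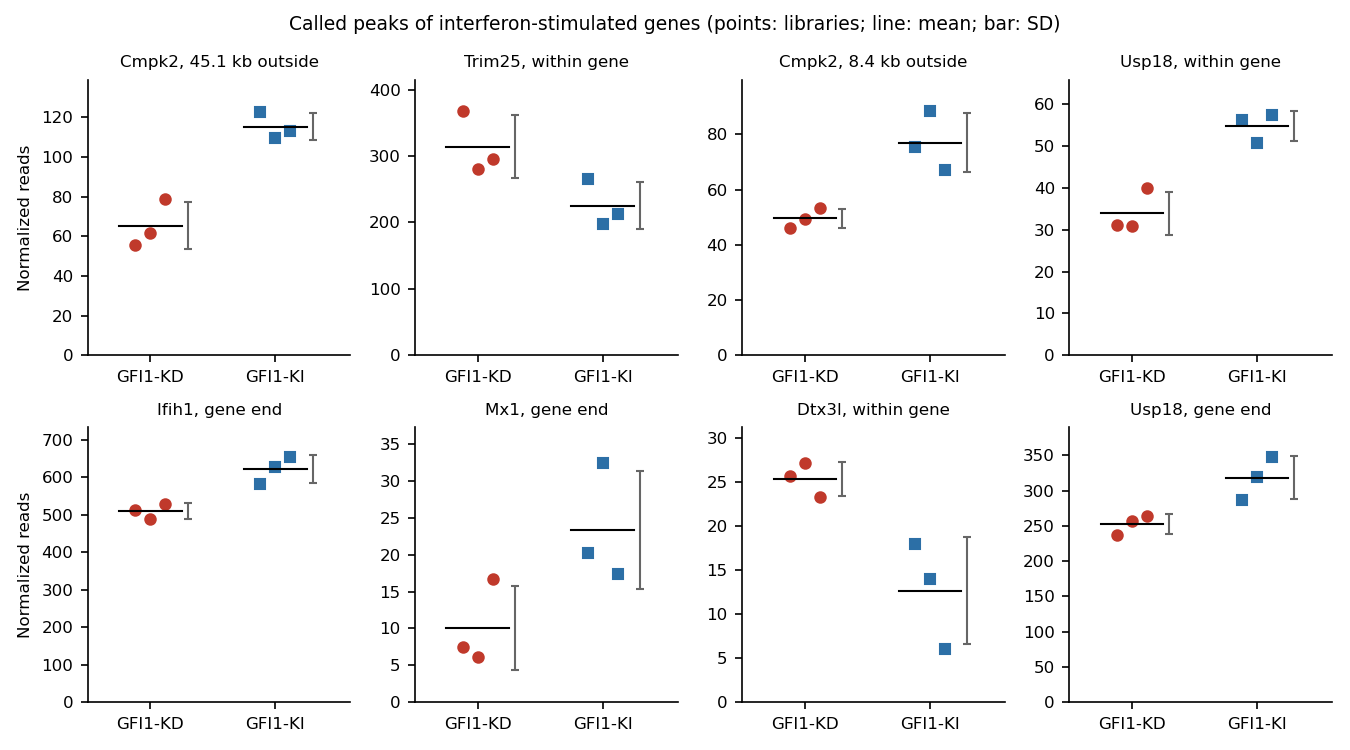
Normalized reads per library in the 8 called peaks, each with its own vertical axis from 0. Points are libraries, black lines means and grey bars the SD, with GFI1-KD left of GFI1-KI; GFI1-KD lies below GFI1-KI in 6 panels and above it inside Trim25 and Dtx3l.

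Cmpk2 and Rsad2 are neighbours on chromosome 12. Cmpk2 encodes a mitochondrial nucleotide kinase, and Rsad2 encodes viperin, an enzyme that makes a chain-terminating nucleotide. The smallest p among all member peaks lay 45.1 kb outside Cmpk2, at chr12:26524920-26525367, with 55.6, 61.7 and 78.7 normalized reads in KD1 to KD3, against 123, 109.6 and 113 in KI1 to KI3. The highest GFI1-KD library was well below the lowest GFI1-KI library. The peak fell by 0.82 (SE 0.16, limma adjusted p = 0.00263), and it was called in all 16 alternatives that tested it, each of the 6 omissions of a library included (adjusted p of 0.00143 to 0.0141).

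Another peak 8.41 kb outside Cmpk2 (chr12:26488244-26488539) held 46.0, 49.4 and 53.2 in KD1 to KD3, against 75.4, 88.5 and 67.2 in KI1 to KI3. It also fell, by 0.62 (SE 0.18, limma adjusted p = 0.0262), but was not called without KD1 (0.059), KD2 (0.0621) or KI2 (0.173), or by DESeq2 (0.115). The promoter peak of Cmpk2, the strongest gene-end peak of the group, was not called, with 896, 882 and 874 in KD1 to KD3, against 1021, 904 and 897 in KI1 to KI3 (-0.09 ± 0.07, limma adjusted p = 0.463). GFI1-KD was the lower without overlap there, and KD1 and KI3 nearly met. None of the 8 tested Rsad2 peaks was called by limma, 4 having negative and 4 positive fold changes. Its promoter peak held 239.7, 251 and 248 in KD1 to KD3 and 227, 205 and 239 in KI1 to KI3, a narrow gap without overlap (0.14 ± 0.11, limma adjusted p = 0.46). A peak assigned to Cmpk2 need not act on it, since assignment is by distance alone.

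**Figure D4:**
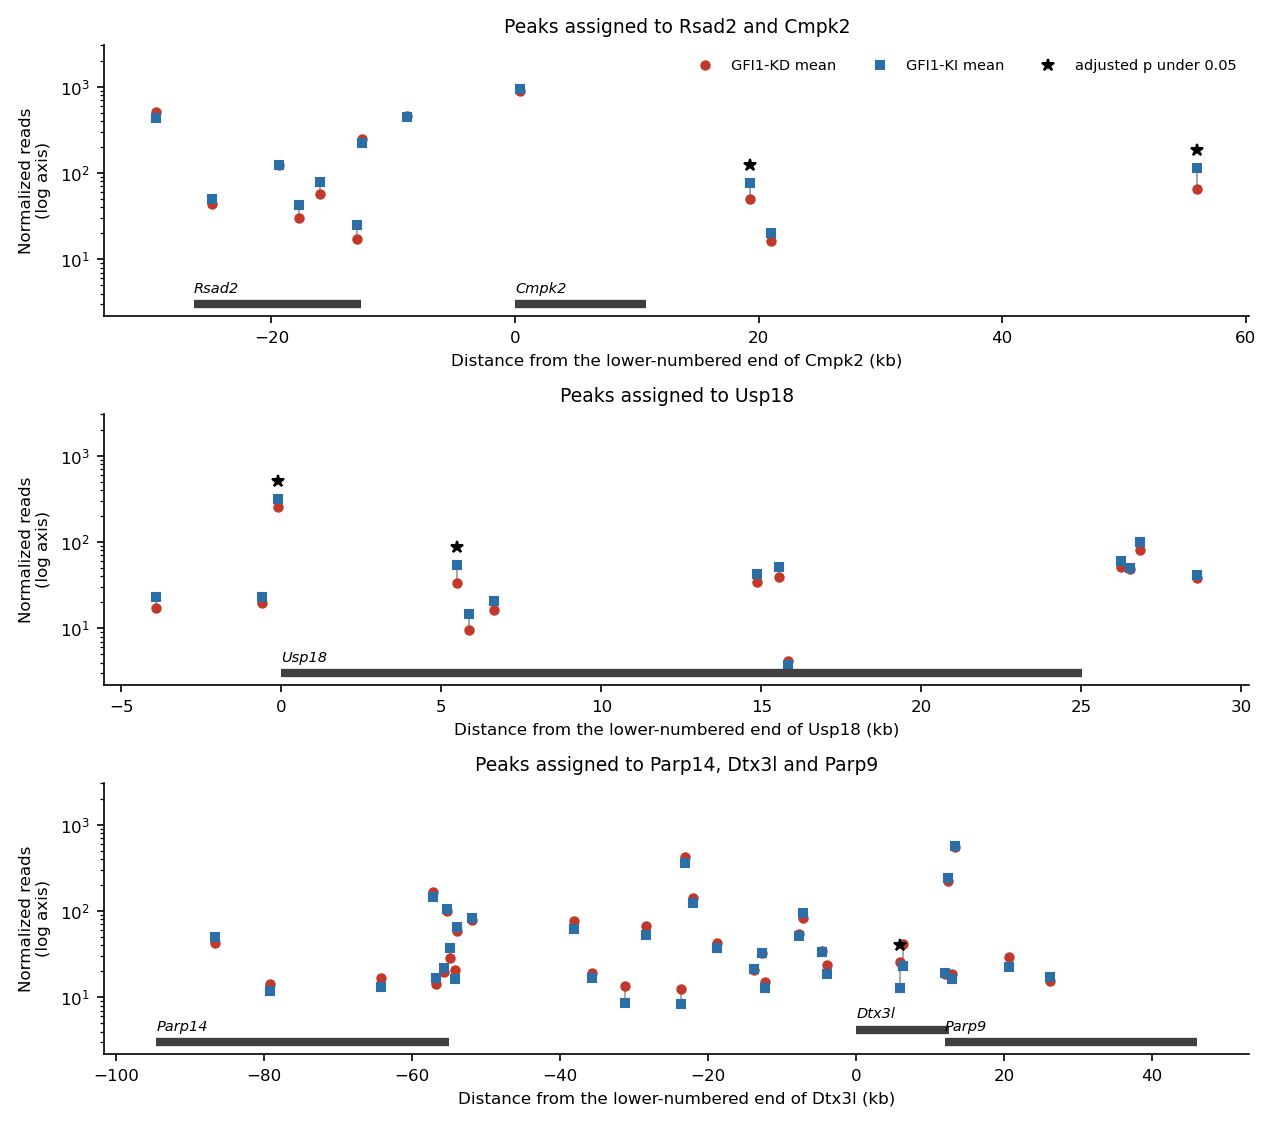
Mean normalized reads (log axis) of every peak assigned at 3 loci against the distance in kb from the lower-numbered end of Cmpk2, Usp18 or Dtx3l. Red circles are GFI1-KD and blue squares GFI1-KI means of 3 libraries, dark bars gene bodies and stars called peaks; the called Cmpk2 peaks lie outside the gene, 1 Usp18 peak lies at the gene's end and 1 inside, and the Dtx3l peak lies inside the gene.

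The 17 antiviral effectors, Cmpk2 and Rsad2 included, had 70 tested peaks, of which 3 were lower, none was higher and 67 were not called, with 14 at an unadjusted p under 0.05. With edgeR a peak assigned to Rsad2 was called, and with both scaling alternatives as well. The third called peak belonged to Mx1. The Mx genes encode dynamin-like GTPases that block viral replication, and in the RefSeq annotation of this strain's genome both are listed as transcribed pseudogenes. The called Mx1 peak, at chr16:97447484-97447716, is shallow, with 7.49, 6.17 and 16.6 normalized reads in KD1 to KD3, against 20.3, 32.4 and 17.4 in KI1 to KI3. KD3 and KI3 nearly met. It was lower in GFI1-KD by a log2 fold change of -1.20 (SE 0.36, adjusted p = 0.0374 in limma), and the call was lost without KD1, KD2, KI2 or KI3 (adjusted p of 0.0645 to 0.238). At the other end of Mx1 the strong peak held 233, 209 and 255 in KD1 to KD3 and 239, 235 and 233 in KI1 to KI3, and the gene-end peak of Mx2 held 333, 358 and 390.3 in KD1 to KD3 and 369, 395 and 324 in KI1 to KI3. The genotypes overlapped in both, with no call.

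IFIT proteins bind viral RNA, and oligoadenylate synthetases (the OAS genes) make the messenger that activates RNase L. No peak of Ifit1, Ifit2, Oas1a, Oas2, Oas3 or Oasl2 was called by limma. The promoter peak of Ifit1 held 99.5, 115 and 136 normalized reads in KD1 to KD3, against 116, 123 and 135 in KI1 to KI3, with the genotypes overlapping across most of their range. Inside Ifit2 a shallow peak held 9.63, 6.17 and 8.87 in KD1 to KD3, against 12.4, 24.5 and 19.6 in KI1 to KI3. The genotypes did not overlap, but limma gave an adjusted p of 0.0586 for the log2 fold change of -1.08 ± 0.36, and the peak was called by edgeR (0.0343) and without KI1 (0.0256). Oas3 had its strongest peak within the gene, at 619 ± 60.6 in GFI1-KD and 671 ± 24.4 in GFI1-KI, and Oas1a had 49.2 ± 13.1 in GFI1-KD and 48.4 ± 11.0 in GFI1-KI at its strongest gene end (SD, n = 3).

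Effectors with other modes of action had overlapping values at their strongest gene-end peaks. Bst2 held 637, 609.7 and 656 in KD1 to KD3, against 637, 623 and 602 in KI1 to KI3, a log2 fold change of 0.03 with a 95% interval of -0.13 to 0.19. For Eif2ak2, the RNA-activated kinase PKR that stops translation, the values were 299.6, 278 and 316 in GFI1-KD and 306, 286 and 303 in GFI1-KI. Isg20 (an exonuclease), Samhd1 (a hydrolase that lowers nucleotide pools) and Adar (which edits adenosine to inosine in double-stranded RNA) had intervals of -0.17 to 0.23, -0.26 to 0.17 and -0.13 to 0.43 at their strongest gene ends. Changes of 2-fold lie outside each of these intervals, and smaller ones may lie inside. The Isg20 peak lay 0.658 kb outside the gene. A stronger Adar peak, over a promoter inside the gene, averaged 436 normalized reads (-0.15, limma adjusted p = 0.31). Fold changes were negative at 5 of 6 tested peaks of Isg20, 9 of 13 of Samhd1 and 7 of 8 of Adar, none called by limma. Over all tested peaks 56.5% were negative.

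Guanylate-binding proteins are GTPases that assemble on pathogens and the vacuoles that hold them. Of the 22 tested peaks of Gbp2, Gbp3, Gbp5 and Gbp7, none was called by limma, with 2 at an unadjusted p under 0.05. The promoter peak of Gbp7 (chr3:142529755-142530448) held 492, 416 and 477 normalized reads in KD1 to KD3, against 430.1, 373 and 323 in KI1 to KI3. Only KD2 and KI1 were out of order. For its log2 fold change of 0.30 ± 0.10 limma gave an adjusted p of 0.0664, above the threshold, while the peak was called by edgeR (0.0126), by DESeq2 (0.0291) and under both other scalings. Gbp3 held 662 ± 3.48 in GFI1-KD and 686 ± 13.4 in GFI1-KI, and Gbp2 187 ± 2.93 in GFI1-KD and 199.8 ± 12.3 in GFI1-KI (SD, n = 3), without overlap in either case and without a call. Reads from near-identical members of the GBP, IFIT and OAS families may be split or lost in mapping, and how such reads were treated is not given in the sources used here.

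Dtx3l and Parp9 form a complex of a ubiquitin ligase and an ADP-ribosyltransferase relative, and Parp14 adds ADP-ribose to proteins. Together they had 34 tested peaks, of which 1 was higher, none was lower and 33 were not called, with a median log2 fold change of 0.17 where all tested peaks had -0.05. On summed gene-end reads the sign was the opposite in all 3 genes, at -0.10 for Dtx3l, -0.08 for Parp9 and -0.12 for Parp14, none of them called by limma, edgeR or DESeq2. These values lie near the median of all genes on such sums, -0.12, where 79.2% of genes were negative. Both gene-end peaks of Dtx3l are shared with Parp9, so the sums of these 2 genes are not separate. The 3 genes lie close together on chromosome 16. The called peak lay inside Dtx3l, at chr16:35932286-35932517, with 25.7, 27.2 and 23.3 normalized reads in KD1 to KD3, against 18.0, 14.0 and 6.04 in KI1 to KI3. KI3 was the lowest by far, and the rise of 1.06 ± 0.33 on the log2 scale (SE, adjusted p = 0.045 in limma) became 0.64 without it (0.27). The peak was called in 9 of the 15 alternatives that tested it, and was not called by DESeq2 (0.124) or without any library but KI1 (adjusted p of 0.0739 to 0.27). An adjoining peak, chosen after its values were seen, held 62.1, 32.1 and 31.0 in KD1 to KD3, against 27.0, 18.4 and 24.2 in KI1 to KI3 (0.76 ± 0.26, limma adjusted p = 0.0666). The gene-end peak that Dtx3l and Parp9 share held 220.4, 217 and 237 in GFI1-KD and 261, 231 and 233 in GFI1-KI, and the strongest of Parp14 held 85.6, 91.3 and 123 in GFI1-KD and 99.1, 99.9 and 113 in GFI1-KI. The genotypes overlapped in both.

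The 5 other induced genes (Ifi27, Ifi35, Ifi44, Trim30a and Xaf1) had 16 tested peaks and no call by limma, edgeR or DESeq2, with 5 at an unadjusted p under 0.05 in limma. Trim30a, a ubiquitin ligase family member, held 233, 268 and 262 normalized reads in KD1 to KD3 at its strongest gene end, against 306, 295 and 297 in KI1 to KI3. Ifi27, which encodes a small membrane protein, held 142, 170.3 and 196 in GFI1-KD, against 202, 199 and 233 in GFI1-KI. Xaf1, a gene linked to apoptosis, held 179.8, 138 and 175 in GFI1-KD, against 189, 193 and 196 in GFI1-KI. In all 3 genes the genotypes did not overlap, and the adjusted p in limma was 0.148 for Trim30a, 0.121 for Ifi27 and 0.254 for Xaf1. At the strongest gene ends of the remaining genes they overlapped. Ifi35 held 290 ± 17.5 in GFI1-KD and 272 ± 21.1 in GFI1-KI, and Ifi44 10.8 ± 4.20 and 19.5 ± 6.74 (SD). Over all tested gene-end peaks 30.5% did not overlap.

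Peaks of a gene share their source, so the reads of all its gene-end peaks were also summed and each gene tested once. Of 33 genes, 3 (9.09%) were called in limma, 1 higher and 2 lower in GFI1-KD, beside 20.2% of the 14789 genes tested (1.85% higher and 18.3% lower). At an unadjusted p under 0.05 there were 9, beside 36.2% of all genes. Ifih1, with a single gene-end peak, fell by 0.28 (SE 0.08, limma adjusted p = 0.012). Usp18 held 256, 276 and 284 in KD1 to KD3, against 304, 349.7 and 369 in KI1 to KI3, without overlap, and fell by 0.32 (SE 0.10, limma adjusted p = 0.0238). Gbp7 held 556, 497 and 588 in KD1 to KD3, against 508, 468 and 409 in KI1 to KI3, with only KD2 and KI1 out of order, and rose by 0.25 ± 0.09 (limma adjusted p = 0.0437). Without KI2 or KI3 none of these genes was called (5 at an unadjusted p under 0.05 in each case), and 7.55% and 6.14% of all genes were. Leaving out KD1 also ended the calls of Usp18 (limma adjusted p = 0.0592) and Gbp7 (0.0786), and leaving out KD3 that of Gbp7 (0.165).

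The summed values of 26 of the 33 genes were negative (78.8%), as were 79.2% over all genes, and the medians were -0.10 and -0.12. Relative to the median of all genes, Ifih1 stood at -0.16, Usp18 at -0.21 and Gbp7 at 0.36. With the TMM scaling of edgeR the median of all genes moved to 0.00, and under that test Gbp7 and Zbp1 were called, both higher, and Ifih1 and Usp18 were not (adjusted p of 0.0979 for Ifih1 and 0.146 for Usp18 in edgeR), beside 8.39% of all genes called. The members' gene-end peaks took 0.133% to 0.139% of all gene-end reads in GFI1-KD and 0.131% to 0.134% in GFI1-KI, with the genotypes overlapping.

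Peaks over promoters with the ISRE core can be set beside those without it. Of the 14 tested member peaks over such promoters 1 was called (Ifih1, lower), and of the 15 over member promoters without the core none was, by limma, with median log2 fold changes of -0.10 and -0.13. Over all genes 12.2% of 476 peaks on promoters with the core were called, 7 higher and 51 lower, and 12.5% of 13101 without it, with medians of -0.10 and -0.12.

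Other genes of the pathway were counted in the same fit, beside 10.5% of all peaks. Of 431 tested peaks of 75 further interferon-induced genes, 26 were higher and 23 lower (11.4%). This list is not wholly separate from the members, since the promoter peak of Ifit1 is also the gene-end peak of Ifit1bl2 and counts in both. The 4 with the smallest p at gene ends went both ways. Ifi44l, a neighbour and relative of Ifi44, held 38.5, 53.1 and 35.5 normalized reads in KD1 to KD3, against 99.1, 90.3 and 74.0 in KI1 to KI3 (-1.05 ± 0.19, limma adjusted p = 0.00136), and Cxcl9, a T cell chemokine gene, held 95.2, 75.3 and 102 in GFI1-KD, against 147, 137 and 140.5 in GFI1-KI (-0.65 ± 0.15, 0.00734). Ifi207 and Ifi211, members of the gene family of DNA-binding p200 proteins, were higher, with 136 ± 28.7 in GFI1-KD and 77.2 ± 3.14 in GFI1-KI for Ifi207 and 259 ± 16.1 in GFI1-KD and 182 ± 23.3 in GFI1-KI for Ifi211 (limma adjusted p = 0.00324 and 0.00827). All 4 were without overlap between the genotypes, which the choice by smallest p makes nearly certain and which adds no further result. Of all tested gene-end peaks 30.5% did not overlap.

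Interferon ligand genes had 4 peaks higher and 1 lower of 58 (8.62%), and receptors and Janus kinases 10 and 3 of 160 (8.12%), with 2 of 8 genes lower on summed gene-end reads (Jak1 and Jak2). For signal transducers and regulatory factors the counts were 8 and 7 of 165 (9.09%), none of them at a gene end in limma, while on summed gene-end reads 5 of the 11 genes were lower, Irf7 among them. The named genes of these lists were chosen after their values were seen. Irf7, a factor that drives type I interferon genes, held 215, 199.9 and 228 in KD1 to KD3, against 270.2, 266 and 262 in KI1 to KI3, without overlap (-0.31 ± 0.10, limma adjusted p = 0.034). On these sums 18.3% of all genes were lower.

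Sensors and adaptors outside the group had 13 peaks higher and 4 lower of 150 (11.3%). Tlr7, the endosomal sensor of single-stranded RNA, had 83.5, 91.3 and 83.2 normalized reads at a gene end in KD1 to KD3, against 43.9, 43.8 and 40.0 in KI1 to KI3, and rose by 0.997 (SE 0.17, log2 scale) with an adjusted p of 0.00075 in limma. Mavs, the adaptor below RIG-I and MDA5, had 287 ± 11.2 in GFI1-KD and 212 ± 28.1 in GFI1-KI (0.44 ± 0.11, limma adjusted p = 0.0159). Genes listed here as inhibitors of the pathway, a role that was not tested, had 16 peaks higher and 8 lower of 148 (16.2%). Socs3, which blocks cytokine receptor signalling, had the smallest p among their gene-end peaks, with 946, 789.9 and 883 in KD1 to KD3, against 551, 586 and 489 in KI1 to KI3 (0.69 ± 0.08, limma adjusted p = 3.81e-05). The other called gene-end peaks of this list were lower, at Trim24 (-0.31 ± 0.05), Samd9l (-0.49 ± 0.12) and Irf2bp2 (-0.22 ± 0.06).

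The share of member peaks called was below the share of all peaks called in the reported fit and in each alternative plotted, for peaks and for summed genes. Over all peaks 10.4% were called with a pseudocount of 0.5, 10.8% with 5, 9.8% without a filter, 15.3% at a mean of at least 50, 11.1% with the replicate block, 10.8% with robust variances, 12.6% by edgeR and 6.31% by DESeq2. Over all genes the shares were 20.1%, 20.3%, 20.1%, 22.2%, 25.3%, 20.9%, 8.39% and 4.03% in those settings, and 10.9% and 16.0% under median-of-ratios and equal-totals scaling. Leaving out KD1, KD2 or KD3 gave 9.95%, 7.3% and 6.31% of peaks and 24.8%, 12.6% and 13.6% of genes, and leaving out KI1, KI2 or KI3 gave 13%, 4.23% and 4.11% of peaks and 16.1%, 7.55% and 6.14% of genes. Counts of called member peaks ran from 1 without KI2 (4.23% of all peaks called) to 14 without KI1 (13%). Among the peaks called in the reported fit, only the distal Cmpk2 peak kept its call in every omission of a library. Why the others lost it was not tested. Nearest the limits of the rule, a Parp14 peak 974 bp from the gene end counted as gene-end, with means of 58.1 in GFI1-KD and 65.7 in GFI1-KI, and an Oas3 peak at 1033 bp did not, with 57.3 in GFI1-KD and 79.6 in GFI1-KI. The first Cmpk2 peak beyond 50 kb, at 53.2 kb, held 30.6 normalized reads on average in GFI1-KD and 32.2 in GFI1-KI.

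**Figure D5:**
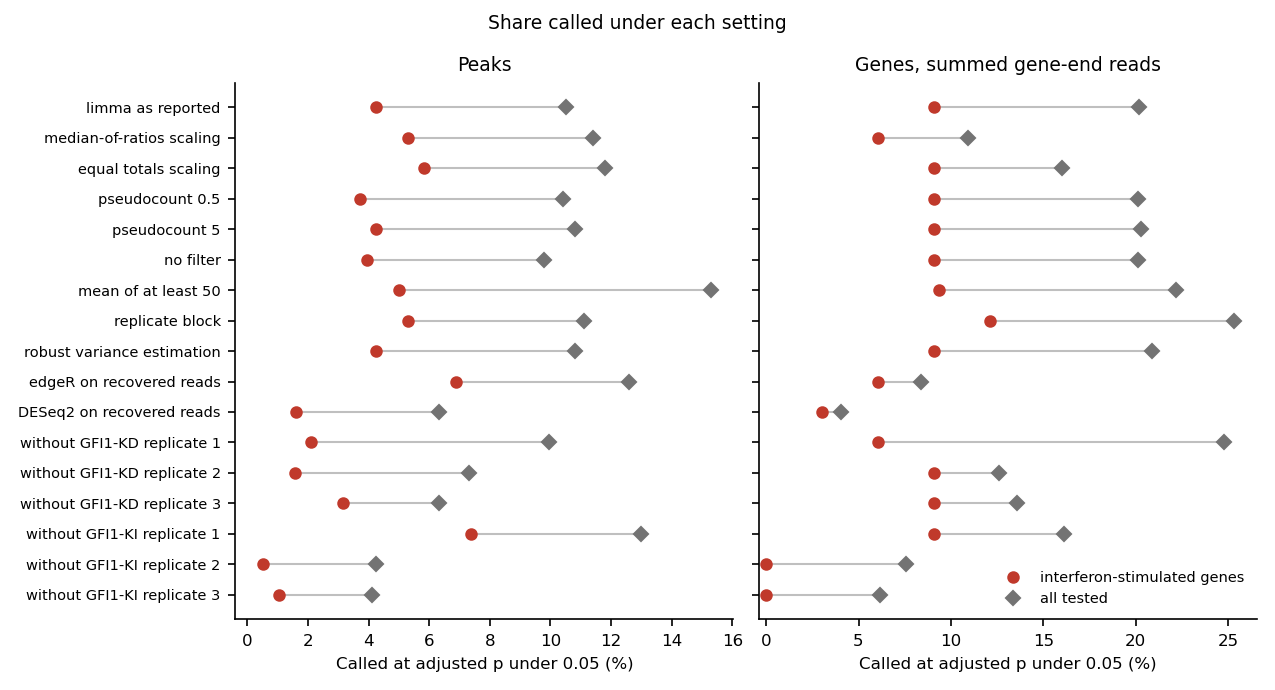
Share of tested peaks (left) and of genes by summed gene-end reads (right) called at an adjusted p under 0.05 (%), for the member genes (red circles) and for all tested (grey diamonds), under each setting. Members lie below all tested in every row, from 4.23% beside 10.5% for peaks in the reported fit to no gene without KI2 or KI3.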

How the data were processed

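ATAC-seq libraries were made from sorted granulocyte-monocyte progenitors of 3 GFI1-KD and 3 GFI1-KI samples by Nextera transposition, as the labels' protocols state. The deposited values are a coverage signal: normalized read counts per consensus peak, which the authors scaled by 1 factor per library as far as the values show. Per the submitters' processing notes the build was mm10, and the tools were BWA and Trim Galore, Picard and SAMtools, MACS2, and HOMER, ChIPseeker and DiffBind, without versions or roles. The merging of peaks, the handling of multiply mapped reads and any correction of read positions are not given in the sources used. Values in each library were whole multiples of a single step (100% at a tolerance of 0.01 reads), so whole reads were recovered for count tests. A floor of 3 reads corresponds to 2.27 to 3.70 normalized reads and covers counting error only. The columns headed WT were taken as GFI1-KI 1 to 3, since the numbers match and no other columns are left.

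Chromosome codes were read in alphabetical order of the names, which put 16.0% of peaks near gene ends, against 2.62% read as numbers. Genes were 21887 protein-coding genes of RefSeq GRCm38.p6; Mx1 and Mx2, transcribed pseudogenes there, received only peaks overlapping them. Peaks with a mean of at least 10 were log2-transformed after adding 1 and compared (GFI1-KD minus GFI1-KI) by limma 3.58.1 in R 4.3.3, using a trended prior variance without a replicate block. Benjamini-Hochberg adjustment ran over all 170733 tested peaks (threshold 0.05). Fold changes on this scale understate those of low peaks. Gene-end reads summed per gene were fitted likewise over 14789 genes. Only the peak fit by limma, in its reported setting, was tested on simulated data. Alternatives were other scalings, pseudocounts of 0.5 and 5, other filters, a replicate block, robust variances, edgeR 4.0.16 and DESeq2 1.42.0 on recovered reads, other windows, and leaving out each library. Python 3.11.15 with numpy 2.4.6, pandas 2.3.3 and matplotlib 3.10.9 made the tables and plots.

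Named are every called member peak, the strongest gene-end peak of each gene, the 5 strongest and 5 most changed member peaks, genes called on summed reads, and at most 4 called gene-end peaks per pathway list. The member genes and all lists were chosen with earlier results of these data known. Values of 1 gene of the signal transducer list are not reported here.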

Additional observations from a re-analysis of the deposited data

How the results depend on the processing

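The 8 called member peaks became 5 at a mean of at least 50, 13 by edgeR (7 higher, 6 lower) and 3 by DESeq2, and lay between 6 and 11 in the other settings that kept all libraries. The 3 called gene-end peaks became 1 by DESeq2, as did the 3 called genes on summed reads, and both counts lay between 2 and 4 otherwise. Leaving out single libraries gave 1 to 14 called peaks, 0 to 5 gene-end peaks and 0 to 3 genes, the counts of 0 coming without KI2 or KI3 in limma (7 gene-end peaks and 5 genes at an unadjusted p under 0.05 in each case). The cause of these changes was not tested.

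Same-numbered libraries did not deviate together (correlations of -0.024, -0.038 and 0.056), and with a replicate block 10 peaks, 4 gene-end peaks and 4 genes were called. Of all pairs across genotypes, KD1 and KI2 had the highest correlation (0.085), the libraries with 0 and 1 chromosome Y reads. The replicate block goes by number and does not pair these libraries, and a block by chromosome Y reads was not tested. Some uncalled gene-end peaks with fold changes near 0 changed sign. The log2 fold changes under median-of-ratios scaling, equal totals, edgeR and DESeq2 were 0.042, 0.040, 0.035 and 0.041 for Eif2ak2, 0.021, 0.018, 0.017 and 0.023 for the stronger Mx1 peak and 0.038, 0.036, 0.030 and 0.036 for Mx2. For Samhd1 they were 0.0018 under median-of-ratios scaling, 0.0076 by edgeR and 0.012 by DESeq2. With single libraries left out they ran from -0.048 to 0.045 for Eif2ak2, -0.22 to 0.043 for Gbp5, -0.22 to 0.0086 for Ifit1, -0.044 to 0.11 for Isg20, -0.095 to 0.049 for Mx1, -0.087 to 0.056 for Mx2, -0.18 to 0.22 for Oas1a, -0.23 to 0.029 for Parp14 and -0.16 to 0.049 for Samhd1.

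Over all named peaks and genes, 606 alternative values kept direction and side of the threshold, 54 lost a call, 10 gained one and 32, those near 0 above, changed sign. Depth limits what can be seen: 14 member peaks fell under the minimum, and the shallow called peaks of Mx1 and Dtx3l have standard errors of 0.36 and 0.33 on the log2 scale.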
